A study of Homo sapiens with 10 samples.

Results

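Respiratory complex I is the first enzyme of the mitochondrial respiratory chain, and 38 of its nuclear-encoded subunit genes and close relatives were followed here over 10 culture conditions of human cell lines. The members are the listed NDUFA, NDUFB, NDUFC, NDUFS, NDUFV and NDUFAB1 symbols, and they were taken by name. Earlier results of these data were known when they were chosen. Each gene was represented by the probe set with the highest mean among those that the array annotation pairs with that symbol alone. Of the 38 genes, 35 had such a probe set, out of 19775 genes on the array. The other 3, NDUFC2, NDUFS5 and NDUFS8, are covered only by probe sets that also carry another gene's symbol, so they were left out of every count below.

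The samples were Affymetrix arrays of total RNA, 1 array per condition. Hke3, a line derived from HCT116, and HCT116, a colorectal carcinoma line, were each profiled in coculture with THP1 macrophages plus vitamin D3, in coculture, with vitamin D3, and alone. THP1 cells were profiled with vitamin D3 and alone. Cocultured cells exchanged soluble factors without touching, and vitamin D3 was given for 24 h. Values are deposited log2 intensities, where a difference of 1 is a 2-fold change. No condition was repeated, and the spread was estimated from pairs of arrays that share every factor but 1, so p-values measure only the spread between such pairs. The colon cancer lines were kept in MEM and THP1 in RPMI, both with serum.

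Complex I oxidises NADH and passes the electrons to ubiquinone while it pumps protons across the inner mitochondrial membrane. Its matrix arm holds the NADH-binding site and the chain of iron-sulphur clusters, and its membrane arm holds the proton pumps. A small set of core subunits does the catalysis and the many accessory subunits surround and stabilise them. NDUFA4 was named as a complex I subunit and is now assigned to complex IV, cytochrome c oxidase. Its paralogue NDUFA4L2 is known as a target of the hypoxia-inducible factor HIF-1 that lowers complex I activity in hypoxic cells. The current symbols of this pair in the reference annotation are COXFA4 and COXFA4L2.

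The array medians lay between 6.15 and 6.21 log2. The epithelial gene EPCAM read 13.06 to 13.55 log2 on the 8 colon cancer arrays and 4.77 and 4.56 on the THP1 arrays with and without vitamin D3. All 10 epithelial markers lay above 6.18 log2, the median of all values, on each colon cancer array. The median of 14 macrophage markers was 11.58 log2 in THP1 cells with vitamin D3 and 11.48 without, against 5.33 to 5.54 on the colon cancer arrays, where 4 or 5 of them lay above 6.18. SRGN, a proteoglycan gene of blood cells, read 6.28 log2 in Hke3 cells with coculture and vitamin D3, against 3.93 to 4.90 on the other 7 colon cancer arrays. The ACTB 3' minus 5' difference, which rises as RNA quality falls, was 0.56 to 0.94 log2 in Hke3, 0.16 to 0.30 in HCT116, and 0.09 and -0.01 in THP1 with and without vitamin D3. The same difference for GAPDH varied far less. It was -0.00 to 0.06 log2 in Hke3, -0.1 on each HCT116 array, and -0.11 and -0.1 in THP1 with and without vitamin D3.

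All 35 members with a probe set of their own passed the filter on dim genes, which asked for at least 1 fitted array above 6.18 log2. Their levels varied little over the 8 colon cancer arrays. The gap between a member's highest and lowest array had a median of 0.30 log2. It was smallest, 0.11, for NDUFB9, an accessory subunit of the membrane arm, and largest, 0.72, for NDUFA3, another membrane-arm subunit.

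In Hke3 cells, no complex I gene passed the test with coculture. Of 35 members, 0 were called at an adjusted p of 0.05 (limma, Benjamini-Hochberg over 13243 genes), where 7.14% of all genes tested were called, 4.09% higher and 3.06% lower. Their median difference was -0.02 log2, against -0.01 for all genes tested, and 14 of 35 lay above 0, against 47.1% of all genes. Only 2 members had an unadjusted p under 0.05. Among all 13243 genes, NDUFV3, with an unadjusted limma p of 0.0503, ranked 3294 by p. The 95% intervals of all 35 members lay between -0.38 and 0.44 log2.

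The 5 measured core subunits differed with coculture in Hke3 by -0.17 to 0.03 log2. NDUFS3, a core subunit of the matrix arm, gave 10.82 and 11.00 log2 in coculture with and without vitamin D3, against 11.13 and 11.04 without coculture. Its difference was -0.17 ± 0.08 log2 (SE), with an adjusted p of 0.243 in limma. Both cocultured arrays lay below both others, by a gap that did not pass the test.

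Among accessory subunits of the matrix arm, NDUFS6, a zinc-binding subunit, had the smallest p in Hke3. It read 11.90 and 11.91 log2 in coculture with and without vitamin D3, against 12.09 and 12.17 without coculture. The difference was -0.23 ± 0.07 log2 (SE; limma adjusted p = 0.0859). NDUFV3, a small subunit of the NADH-binding module, went the other way, with 10.30 and 10.34 log2 in coculture with and without vitamin D3 and 10.23 and 9.97 without coculture, a difference of 0.22 ± 0.09 (SE; limma adjusted p = 0.202). The lowest of the 4 values was that of Hke3 alone. In the membrane arm, the 18 measured members differed by -0.14 to 0.12 log2, and those with the smallest p on the upper side, NDUFB5 (0.12 ± 0.07, SE) and NDUFB8 (0.09 ± 0.06, SE), had limma adjusted p of 0.3 and 0.433.

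NDUFA4L2 did not pass the test in Hke3. It read 6.71 and 6.97 log2 in coculture with and without vitamin D3, against 7.0 and 6.78 without coculture. The values of the cocultured and the other arrays overlapped. The difference was -0.05 ± 0.12 log2 (SE; limma adjusted p = 0.826), and its 95% interval ran from -0.33 to 0.22. On the 8 colon cancer arrays its single probe set read 6.71 to 7.09 log2, where the macrophage genes CD53, CSF1R and AIF1 read 6.61 to 6.94, 6.49 to 6.96 and 6.65 to 6.89. These are the brightest of the 14 macrophage markers on those arrays. The others peaked lower, such as LAPTM5 at 6.30 to 6.74, CD14 at 5.24 to 5.64 and PTPRC at 4.06 to 4.43. Since some of the markers read about as high as NDUFA4L2, its probe set is not shown to be above background in these cells. Changes of so dim a signal are compressed, so neither the estimate nor its interval bounds the change in the transcript. The same holds for its values in HCT116 and THP1. NDUFA4 read 12.35 and 12.44 log2 in coculture with and without vitamin D3 and 12.64 and 12.56 without coculture. Both cocultured values lay below both others, and the difference of -0.21 ± 0.07 log2 (SE) did not pass the test (limma adjusted p = 0.114).

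In the same Hke3 arrays, 15 of 19 HIF targets rose (78.9%) and 0 fell, with a list median of 1.19 log2. Over all genes tested, 4.09% rose and 3.06% fell. ANKRD37, a hypoxia-induced ankyrin repeat gene, read 11.77 and 11.40 log2 in coculture with and without vitamin D3, against 8.96 and 9.31 without coculture. Every cocultured value lay above every other Hke3 value, a rise of 5.46-fold (2.45 ± 0.19 log2, SE; limma adjusted p = 0.00134). ANGPTL4, a secreted regulator of lipoprotein lipase, rose by 1.99 ± 0.13 log2 (SE; limma adjusted p = 0.000745) and NDRG1, a stress-induced gene, by 1.77 ± 0.20 (SE; limma adjusted p = 0.00453). COX4I2, the HIF-inducible isoform of a cytochrome c oxidase subunit, differed by -0.09 log2. It read only 6.38 to 6.71 log2 in Hke3, as dim as NDUFA4L2, so the same limit holds for it. The list was chosen with results of these arrays known, so its direction is no independent evidence. The ACTB 3' minus 5' difference moved with coculture in Hke3, at 0.56 and 0.62 log2 with coculture (with and without vitamin D3) and 0.72 and 0.94 without it, and its part in these results was not tested.

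**Figure D1:**
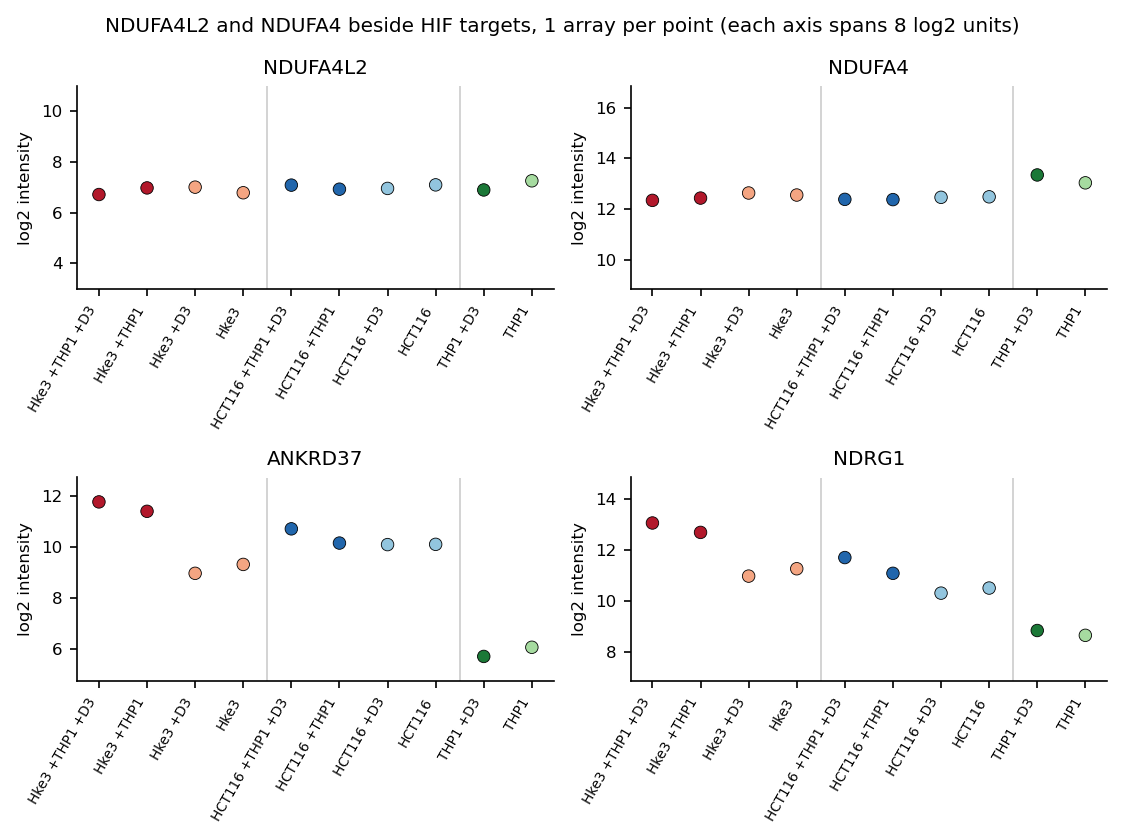
Log2 intensity of NDUFA4L2, NDUFA4 and the HIF targets ANKRD37 and NDRG1, 1 point per array, with Hke3, HCT116 and THP1 separated by grey lines and each vertical axis spanning 8 log2 units. NDUFA4L2 stays between 6.71 and 7.25 log2 on all 10 arrays, while ANKRD37 reaches 11.77 and 11.40 in cocultured Hke3 cells, against 8.96 and 9.31 in Hke3 cells without coculture.

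HIF binds the core letters ACGTG on either DNA strand, and a variant of this core is written GCGTG, so the promoters of NDUFA4L2 and ANKRD37 are shown side by side. The third, that of the core subunit NDUFS7, is the complex I gene that stood highest in THP1 cells relative to the colon cancer lines. Each is the 250 bases before the gene's start from RefSeq (GRCh38.p14), read 5′ to 3′ on the gene's strand, with every match to either core, on both strands, in capitals.
NDUFA4L2: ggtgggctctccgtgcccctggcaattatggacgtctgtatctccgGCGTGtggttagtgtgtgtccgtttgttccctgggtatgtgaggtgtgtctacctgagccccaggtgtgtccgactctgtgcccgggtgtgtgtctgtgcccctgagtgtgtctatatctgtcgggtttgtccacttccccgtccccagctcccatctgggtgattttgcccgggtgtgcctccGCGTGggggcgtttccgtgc
ANKRD37: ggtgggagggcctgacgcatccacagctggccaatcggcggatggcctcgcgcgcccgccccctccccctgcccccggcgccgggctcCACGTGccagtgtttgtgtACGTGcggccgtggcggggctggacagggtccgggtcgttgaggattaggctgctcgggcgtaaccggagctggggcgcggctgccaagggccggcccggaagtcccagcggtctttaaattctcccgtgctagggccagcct
NDUFS7: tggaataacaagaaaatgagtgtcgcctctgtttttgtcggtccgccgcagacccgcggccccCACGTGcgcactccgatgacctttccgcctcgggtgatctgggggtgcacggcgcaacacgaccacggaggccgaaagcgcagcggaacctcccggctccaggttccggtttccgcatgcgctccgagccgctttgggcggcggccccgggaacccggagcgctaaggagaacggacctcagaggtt

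The NDUFA4L2 window, chr12:57240763-57241012 on the minus strand, holds GCGTG in 2 places and no ACGTG. The ANKRD37 window, chr4:185396591-185396840 on the plus strand, holds ACGTG in 2 places, 1 of them the palindrome CACGTG, which reads as ACGTG on both strands. The NDUFS7 window, chr19:1383657-1383906 on the plus strand, holds the same palindrome in 1 place. NDUFS7 differed with coculture in Hke3 by -0.01 ± 0.08 log2 (SE; limma adjusted p = 0.946). Promoters were found for 34 of the 38 complex I genes, 42 promoters in all since some genes have several. ACGTG stood in 9 of these 42 (21.4%) and in 18.5% of all 35116 promoter windows, and GCGTG in 21 of 42 (50.0%) and in 32.2% of all windows. Of 22 promoters of the HIF targets, 11 held ACGTG and 11 held GCGTG, and 18 (81.8%) held at least 1 of the cores. At least 1 core stood in 25 of the 42 complex I promoters (59.5%) and in 43.2% of all windows. A match says only that the letters are present.

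In HCT116 cells, 4 of 35 complex I genes fell with coculture (11.4%) and 0 rose. Over all genes tested 16% were called, and 8.31% fell and 7.66% rose, so the share of complex I genes that fell was close to that of all genes. The 4 were NDUFA2 in the matrix arm, NDUFB3 and NDUFA1 in the membrane arm, and NDUFAB1, the mitochondrial acyl carrier protein, which is bound in both arms and also serves fatty acid synthesis. The median difference over the 35 was -0.08 log2, against -0.02 for all genes, and 6 lay above 0, against 45.0% of all genes. Unadjusted p was under 0.05 for 10 members. Such p-values were common over all genes, since NDUFA8, with an unadjusted limma p of 0.0525, ranked only 4270 of 13243. The count of 10 therefore does not set the members apart. The ACTB 3' minus 5' value moved with coculture here too, at 0.23 and 0.16 log2 in coculture with and without vitamin D3, against 0.25 and 0.30 without coculture, and its part in the falls was not tested.

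NDUFA2, a thioredoxin-fold subunit of the matrix arm, read 11.44 and 11.58 log2 in cocultured HCT116 cells with and without vitamin D3, against 11.93 and 11.93 without coculture. It fell by 0.42 ± 0.09 log2 (SE; limma adjusted p = 0.0207), and the groups did not overlap. NDUFAB1 read 13.11 and 13.16 log2 in coculture with and without vitamin D3 and 13.42 and 13.44 without coculture, and fell by 0.29 ± 0.06 (SE; limma adjusted p = 0.0232).

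NDUFB3 read 11.14 and 11.34 log2 in cocultured HCT116 cells with and without vitamin D3, against 11.55 and 11.57 without coculture. It fell by 0.33 ± 0.07 log2 (SE; limma adjusted p = 0.0260). NDUFA1, an X-linked subunit needed for assembly of the complex, read 12.32 and 12.41 log2 in coculture with and without vitamin D3 and 12.58 and 12.63 without coculture, and fell by 0.24 ± 0.07 (SE; limma adjusted p = 0.0499). All 4 falls were under 1.5-fold, the largest being 1.34-fold, and each was present in both pairs of arrays. Leaving out any one of the HCT116 arrays (alone, with vitamin D3, cocultured, or cocultured with vitamin D3) left 0 of 35 members called, and the 4 HCT116 arrays fitted alone left 1.

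The members with the smallest p on the upper side in HCT116 were NDUFS4, NDUFA10 and NDUFA13. NDUFS4, a matrix-arm subunit, read 11.30 and 11.32 log2 in coculture with and without vitamin D3 and 11.16 and 11.14 without coculture, a difference of 0.16 ± 0.06 (SE; limma adjusted p = 0.140). NDUFA10 differed by 0.07 ± 0.07 log2 and NDUFA13 by 0.07 ± 0.09 (SE), with limma adjusted p of 0.573 and 0.643. The 5 core subunits differed by -0.20 to 0.03 log2, and none passed the test. NDUFS1, the largest core subunit, differed by 0.03 log2 on its brightest probe set, while a dimmer one read 7.68 and 7.62 log2 in coculture with and without vitamin D3 and 6.88 and 7.07 without coculture, a rise of 0.68 (limma adjusted p = 0.0377 over probe sets). NDUFA4L2 read 7.08 and 6.92 log2 in cocultured HCT116 cells with and without vitamin D3 and 6.95 and 7.09 without coculture, a difference of -0.02 ± 0.12 (SE; limma adjusted p = 0.933; 95% interval -0.30 to 0.26). NDUFA4 differed by -0.09 ± 0.07 log2 (SE; limma adjusted p = 0.397).

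**Figure D2:**
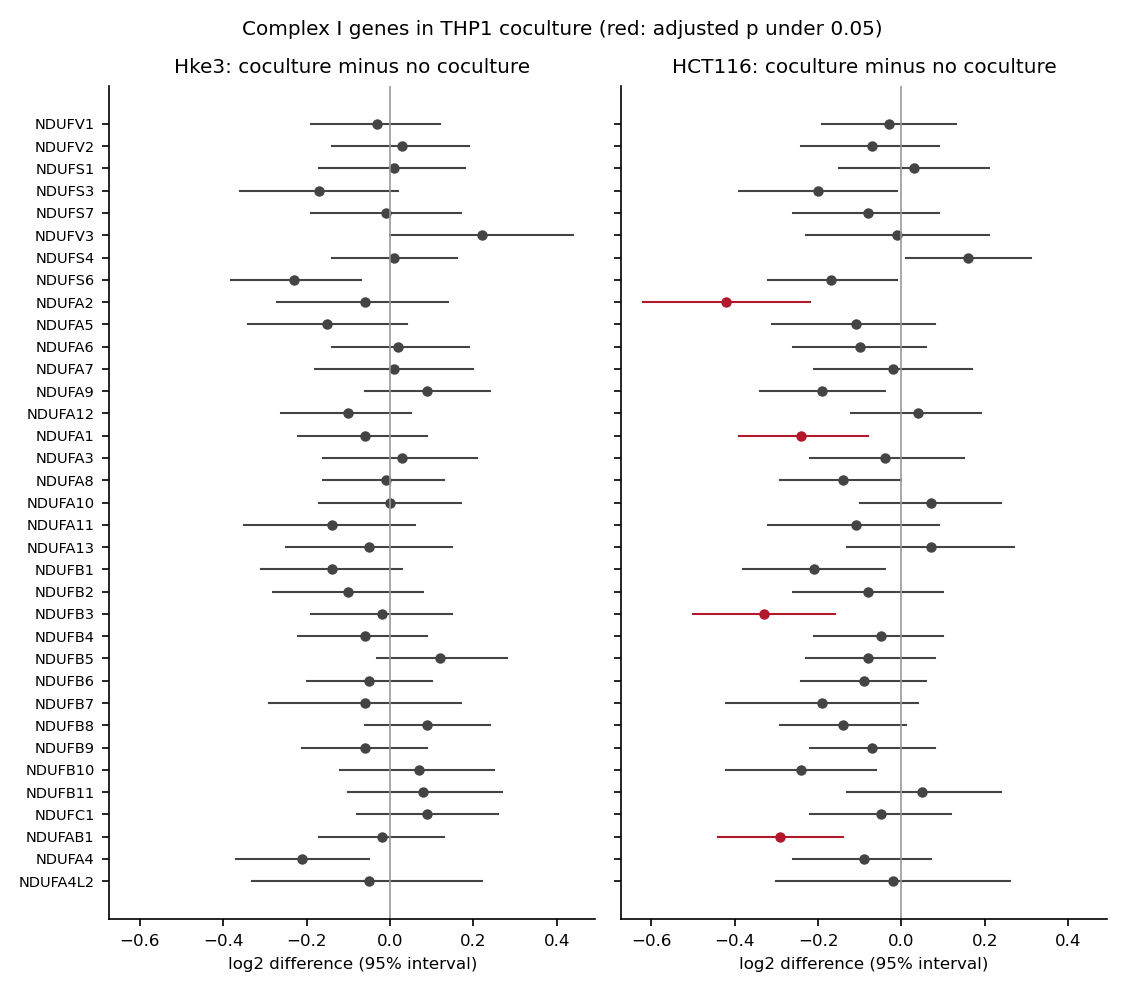
Log2 difference of each complex I gene with coculture minus without it, in Hke3 (left) and HCT116 (right), with points for the estimates and lines for the 95% intervals of the fit. No Hke3 point is red, and the 4 red HCT116 points, NDUFA2, NDUFA1, NDUFB3 and NDUFAB1, lie between -0.42 and -0.24.

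Some other genes of oxidative phosphorylation were called lower in HCT116, where 8.31% of all genes were. The share in complex IV was close to that, and of 5 complex II genes 0 were called. Of 15 ATP synthase genes 3 fell (20%) and 0 rose, among them ATP5MC1, a c-ring subunit, by 0.43 ± 0.07 log2 (SE; limma adjusted p = 0.00895). UQCRQ of complex III fell by 0.37 and COX7B of complex IV by 0.33 log2, each the only one called, of 7 genes (14.3%) and 11 genes (9.09%) (limma adjusted p = 0.0141 and 0.0174). Of 19 complex I assembly factors, FOXRED1 and NDUFAF8 fell, by 0.48 and 0.37 log2 (limma adjusted p = 0.00967 and 0.0159). Of 12 regulators of mitochondrial biogenesis, PPARGC1B, PPRC1 and NRF1 fell, by 0.52, 0.39 and 0.37 log2, and TFB1M, a mitochondrial rRNA methyltransferase, rose by 0.38. Of 19 HIF targets, 3 rose in HCT116 (15.8%), NDRG1, VEGFA and MXI1, where 7.66% of all genes rose. The list median was 0.23 log2. ANKRD37 read 10.71 and 10.15 log2 in coculture with and without vitamin D3, against 10.09 and 10.10 without coculture.

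In Hke3, 4.09% of all genes rose and 3.06% fell with coculture. Of the 19 assembly factors NDUFAF6 fell by 0.48 ± 0.07 log2 (SE; limma adjusted p = 0.0103), and of the 5 complex II genes SDHC, a membrane anchor, fell by 0.36 ± 0.07 (SE; limma adjusted p = 0.0257). No gene of complex III, complex IV or ATP synthase was called there, out of 7, 11 and 15, with 0, 0 and 1 at an unadjusted p under 0.05. Of the regulators, GABPA and TFB1M rose, by 0.48 and 0.34 log2.

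The coculture difference itself was compared between the lines, Hke3 minus HCT116. Of 35 complex I genes 0 passed this test, where 4.21% of all genes did (1.87% above 0 and 2.34% below 0). The smallest p belonged to NDUFA9, a matrix-arm subunit, which differed with coculture by 0.09 log2 in Hke3 and -0.19 in HCT116, a gap of 0.28 ± 0.09 (SE; limma adjusted p = 0.128). NDUFAB1 had a gap of 0.27 ± 0.09 and NDUFB3 of 0.30 ± 0.10 log2 (SE; limma adjusted p = 0.134 and 0.148). NDUFA2, with the largest gap of any member, 0.36 log2, and NDUFA1, with 0.18, did not pass either. On the lower side, NDUFS4 and NDUFA12 had gaps of -0.15 and -0.14 log2, with limma adjusted p of 0.389 and 0.442. So the 4 falls in HCT116 were not shown to differ from the values in Hke3. For NDUFA4L2 the gap was -0.03 ± 0.17 log2 (SE; limma adjusted p = 0.936), and for NDUFA4 it was -0.11 ± 0.10 (SE; limma adjusted p = 0.548). Of 19 HIF targets 11 had a larger difference in Hke3 and 0 in HCT116, with ANKRD37 at 2.12 ± 0.27 log2 (SE; limma adjusted p = 0.0113).

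With both lines in 1 additive fit, 0 of 35 complex I genes were called for coculture, where 7.82% of all genes were (3.76% higher and 4.05% lower). The median was -0.05 log2, against -0.02 for all genes, and 8 members lay above 0, against 45.3% of all genes. NDUFS6 came closest, with a difference of -0.20 ± 0.05 log2 (SE; limma adjusted p = 0.0588), and it was lower in coculture in 4 of 4 pairs. NDUFS3 and NDUFB1 followed, at -0.19 ± 0.06 and -0.17 ± 0.06 log2 (SE; limma adjusted p = 0.0952 and 0.0967), also lower in 4 of 4 pairs. On the upper side the values were 0.08 for NDUFS4, 0.10 for NDUFV3 and 0.07 for NDUFB11, with limma adjusted p of 0.391, 0.441 and 0.497. NDUFA4L2 differed by -0.04 ± 0.08 log2 and was higher in 2 of 4 pairs (limma adjusted p = 0.825), and NDUFA4 by -0.15 ± 0.06 (SE; limma adjusted p = 0.131).

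The pairs of arrays behind these fits did not all move alike. In Hke3, the median over the 35 genes was -0.07 log2 for coculture with vitamin D3 against vitamin D3, with 8 genes above 0, and 0.04 for coculture against no coculture without vitamin D3, with 19 above 0. In HCT116 the same medians were -0.08 and -0.09 log2, with 9 and 6 genes above 0. The medians of all genes with and without vitamin D3 were 0 and -0.02 log2 in Hke3, and 0 and -0.04 in HCT116. The members' median thus lay below that of all genes in both HCT116 pairs, and in Hke3 the 2 pairs differed in sign.

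No complex I gene of the colon cancer lines was called for vitamin D3. In the fit of both lines 0 of 35 members passed the test in limma and 0 had an unadjusted p under 0.05, and 0% of all 13243 genes were called. The differences ran from -0.08 to 0.12 log2 with a median of -0.02, against -0.01 for all genes, and all 95% intervals lay between -0.25 and 0.26. The smallest p on the upper side belonged to NDUFA5 (0.12 ± 0.06 log2, SE), NDUFB6 and NDUFB9 (0.06 and 0.04), and on the lower side to NDUFV1 (-0.08 ± 0.05, SE), NDUFS6 and NDUFA7 (-0.06 and -0.07). NDUFV1, the core subunit that binds NADH, was lower with vitamin D3 in 4 of 4 pairs. The limma adjusted p of these 6 was 1.

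By pair, 29 of 35 members were higher in Hke3 with vitamin D3 than in Hke3 alone. Their median was 0.08 log2, against -0.02 for all genes. In cocultured Hke3, 7 of 35 were higher with vitamin D3, with a median of -0.04, against 0.02 for all genes. In HCT116, 11 of 35 were higher with vitamin D3, both with and without coculture, with a median of -0.04 in each pair. The median of all genes was 0 in the cocultured HCT116 pair. Without coculture it was -0.04, the same as that of the members. CYP24A1, the vitamin D 24-hydroxylase and the standard target of the vitamin D receptor, read 12.35 log2 with vitamin D3 and 10.89 without in Hke3, and 11.43 with and 9.99 without in HCT116. In the cocultures its order ran against the labels, with 10.89 with vitamin D3 and 12.25 without in Hke3, and 9.70 with and 10.68 without in HCT116. The fit averages pairs in which CYP24A1 moved in opposite directions, so the lack of calls does not show that vitamin D3 had no effect. On the 4 arrays without coculture, 1 of all genes was called, and the members had a median of 0.03 log2, against -0.03 for all genes. The arrays labelled as cocultured with vitamin D3 were used as labelled, and 1 label field of the Hke3 vitamin D3 array names no treatment. Left without a vitamin D3 term, the coculture fits called 0 members in Hke3 and 4 in HCT116.

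Hke3 and HCT116 differed in 7 of 35 complex I genes (20%), where 40.5% of all genes differed between the lines (24.8% higher and 15.7% lower in Hke3). Of these, 3 were higher in Hke3, NDUFA3, NDUFA11 and NDUFA7, and 4 were lower, NDUFA5, NDUFB5, NDUFA10 and NDUFS4. Centring each array on its median gave 1 higher and 6 lower members, and over all genes it gave 2570 higher of 5928 called, where the deposited scaling gave 3287 of 5364. None of the 7 reached 1.5-fold. Dimmer probe sets of NDUFB4, NDUFS1, NDUFA6, NDUFB2 and NDUFV3 passed the test over probe sets, at 1.05, 0.36, -0.29, -0.29 and -0.18 log2. The brightest probe sets of these genes, at 0.11, -0.15, -0.01, 0.09 and -0.12 log2, did not pass. Leaving out cocultured HCT116 with vitamin D3 left 3 called, and leaving out HCT116 with vitamin D3, cocultured HCT116 or either cocultured Hke3 array left 4.

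NDUFA3, of the membrane arm, read 11.67, 11.80, 11.77 and 11.65 log2 in Hke3 (coculture with vitamin D3, coculture, vitamin D3, alone), against 11.08, 11.21, 11.15 and 11.22 in HCT116 in the same order. All 4 Hke3 values lay above all 4 HCT116 values, a difference of 0.56 ± 0.06 log2 (SE; limma adjusted p = 0.000296). NDUFA11, a membrane-arm subunit, was higher by 0.22 ± 0.06 log2 (SE; limma adjusted p = 0.0251) and NDUFA7, of the matrix arm, by 0.21 ± 0.06 (SE; limma adjusted p = 0.0245), each in 4 of 4 pairs.

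NDUFA5, a matrix-arm subunit, read 10.93, 10.71, 10.95 and 10.98 log2 in Hke3, against 11.36, 11.15, 11.41 and 11.33 in HCT116 in that order. The fit gave -0.42 ± 0.06 (SE; limma adjusted p = 0.00115), with no overlap between the lines. NDUFB5 and NDUFA10, both of the membrane arm, differed by -0.27 ± 0.06 and -0.21 ± 0.06 log2 (SE; limma adjusted p = 0.0104 and 0.0187). NDUFS4 differed by -0.16 ± 0.06 (SE; limma adjusted p = 0.0471), and the mean of its 2 probe sets gave 0.15 instead. NDUFA4L2 differed by -0.15 ± 0.08 and NDUFA4 by 0.07 ± 0.06 log2 (SE), with limma adjusted p of 0.2 and 0.378. The ACTB 3' minus 5' difference also separated the lines, at 0.56 to 0.94 log2 in Hke3 and 0.16 to 0.30 in HCT116, and its part was not tested.

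**Figure D3:**
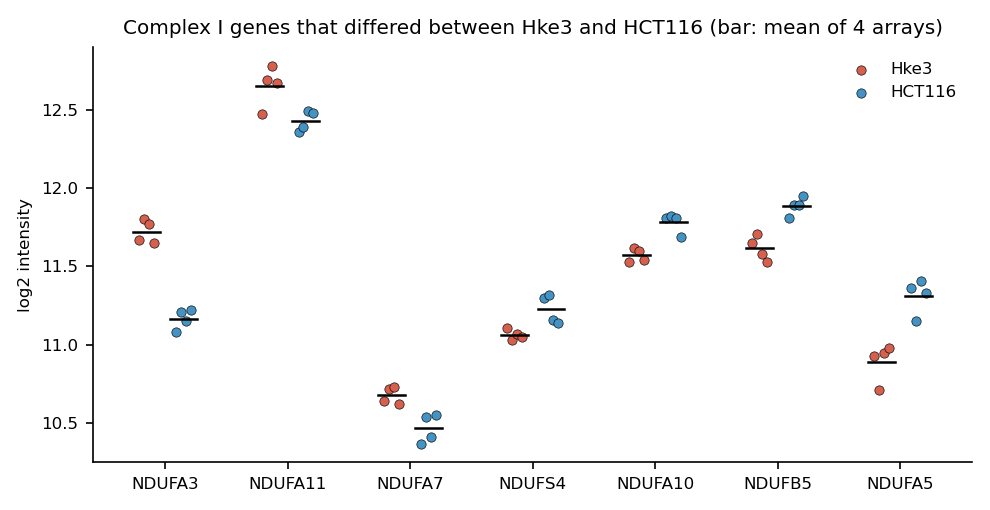
Log2 intensity of the 7 complex I genes that differed between Hke3 and HCT116, with 4 points per line, 1 per array, and bars at the means. The lines do not overlap for NDUFA3 (means 11.72 in Hke3 and 11.16 in HCT116), NDUFA7, NDUFA5 (10.89 and 11.31), NDUFB5, NDUFA10 or NDUFS4, while NDUFA11 overlaps on 1 Hke3 array.

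Of 19 complex I assembly factors 5 were higher (26.3%) and 7 lower (36.8%) in Hke3 than in HCT116, where 24.8% of all genes were higher and 15.7% lower. Among them were NDUFAF2 at -0.63, ECSIT at -0.60, TMEM70 at -0.36 and NDUFAF6 at -0.36 log2 (limma adjusted p = 0.00106, 0.000197, 0.00165 and 0.00584).

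Most complex I genes were higher in THP1 cells than in the colon cancer lines. Of 35 members 21 were higher (60%) and 2 lower (5.71%) in THP1, where 68.3% of all genes were called, 28.1% higher and 40.2% lower. The median over the members was 0.42 log2, against -0.07 for all 13879 genes tested. It was 0.29 log2 with the THP1 vitamin D3 array left out and 0.53 with the THP1 array without vitamin D3 left out. All genes gave -0.08 in both cases, so the size of the difference depended on which THP1 array was used. Centring each array on its median moved the median of all genes to 0.13 log2, with 5739 higher of 10144 genes called in place of 3896 of 9478, and then 26 members were higher and 1 lower, with a median of 0.62. The members' median was above that of all genes under both scalings. THP1 is a leukaemic monocyte line and the others are epithelial, and kind of cell, line and culture medium cannot be told apart here. In bulk RNA, fewer cells of a type and less RNA per cell cannot be told apart either. THP1 also had the lowest ACTB 3' minus 5' values, 0.09 and -0.01 log2 with and without vitamin D3, and their part was not tested.

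By role, 3 of 5 measured core subunits were higher in THP1, as were 6 of 9 accessory subunits of the matrix arm and 11 of 18 of the membrane arm. Of all genes tested, 28.1% were higher. NDUFS7, the core subunit that holds the last iron-sulphur cluster before ubiquinone, read 11.78 and 11.15 log2 in THP1 with and without vitamin D3, against 10.32 to 10.52 on the 8 colon cancer arrays. It was 2.04-fold higher (1.03 ± 0.15 log2, SE; limma adjusted p = 0.000189). NDUFS3 read 12.02 and 11.86 log2 in THP1 with and without vitamin D3, against 10.82 to 11.13, a difference of 0.85 ± 0.08 (SE; limma adjusted p = 1.42e-05). Neither gene's THP1 values overlapped the colon cancer values.

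In the membrane arm, NDUFB1 was higher by 0.95 ± 0.07, NDUFB5 by 0.92 ± 0.17, NDUFA13 by 0.82 ± 0.08 and NDUFA3 by 0.80 ± 0.12 log2 (SE), with limma adjusted p between 2.26e-06 and 0.00104. NDUFB1 read 13.40 and 13.34 log2 in THP1 with and without vitamin D3, against 12.10 to 12.52 in the colon cancer lines. NDUFA13, known also as GRIM-19 for its role in interferon- and retinoic-acid-induced cell death, read 13.17 and 13.08 in THP1, against 12.18 to 12.40. These genes were high on both THP1 arrays.

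The 2 members called lower in THP1, in the fit of both THP1 arrays, were NDUFA9 and NDUFAB1. NDUFA9, which lies at the joint between the arms, read 10.25 and 9.95 log2 in THP1 with and without vitamin D3, against 10.76 to 10.96 in the colon cancer lines, a difference of -0.79 ± 0.10 (SE; limma adjusted p = 9.4e-05). NDUFAB1 read 13.17 and 12.95 log2 in THP1 with and without vitamin D3, against 13.11 to 13.44, a difference of -0.30 ± 0.09 (SE; limma adjusted p = 0.0176), and its THP1 values overlapped the others. Some members that were not called lay below every colon cancer array in THP1 alone and above them with vitamin D3. NDUFA10 read 11.86 and 11.25 log2 in THP1 with and without vitamin D3, against 11.53 to 11.82. NDUFA8 read 11.76 and 11.20, against 11.51 to 11.66. NDUFA4 was higher in THP1 by 0.65 ± 0.09 log2 (SE; limma adjusted p = 0.00014), at 13.35 and 13.04 with and without vitamin D3. NDUFA4L2 differed by 0.11 ± 0.12 (SE; limma adjusted p = 0.434). Of 19 HIF targets 16 were lower in THP1 (84.2%) and 0 higher, where 40.2% of all genes were lower and 28.1% higher.

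**Figure D4:**
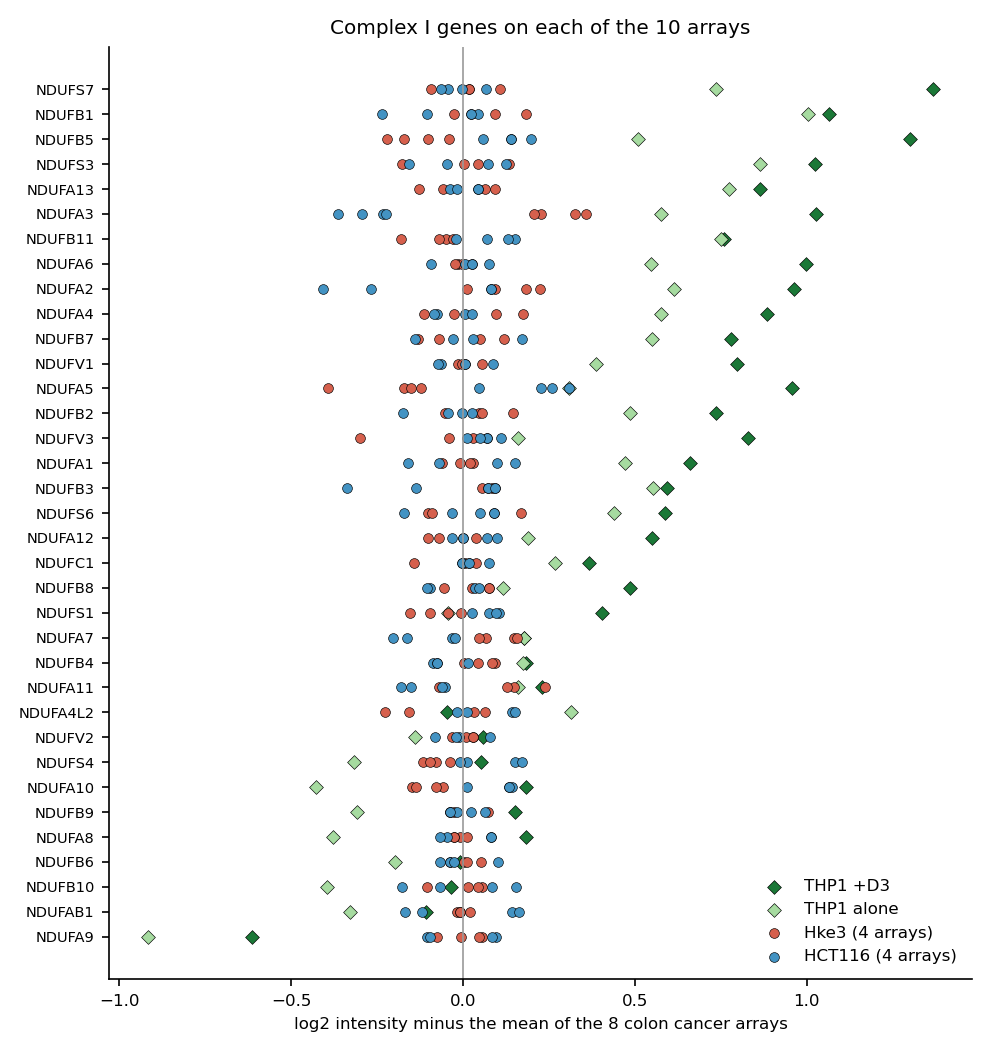
Log2 intensity of each complex I gene on the 10 arrays minus its mean over the 8 colon cancer arrays, with genes ordered from the highest difference in THP1 at the top to the lowest at the bottom. Diamonds are the THP1 arrays with (dark) and without (light) vitamin D3, circles are Hke3 and HCT116 arrays, and NDUFS7 stands at the top and NDUFA9 at the bottom.

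Other respiratory chain genes stood higher in THP1 as well, and their regulators did not. Over all genes tested, 28.1% were higher and 40.2% lower. Of 11 complex IV genes 8 were higher and 0 lower, and of 15 ATP synthase genes 9 were higher and 0 lower, with list medians of 0.40 and 0.33 log2. ATP5MC2, a c-ring subunit, was higher by 0.74 ± 0.08 log2 (SE; limma adjusted p = 1.76e-05). Complex III had 3 of 7 higher, and complex II 2 of 5 higher and 1 lower. The assembly factors split, with 8 of 19 higher and 8 lower, NDUFAF3 at 1.24 and NDUFAF5 at -1.06 log2 (limma adjusted p = 1.26e-05 and 2.17e-06). Of 12 regulators of mitochondrial biogenesis 7 were lower and 0 higher, among them TWNK, the mitochondrial DNA helicase, at -1.84, PPRC1, a coactivator of the PGC-1 family, at -1.57, and POLRMT, the mitochondrial RNA polymerase, at -1.21 log2 (limma adjusted p = 6.93e-08, 1.53e-07 and 4.67e-06).

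With vitamin D3, THP1 cells showed higher values for nearly all complex I genes. Of 35 members 34 lay above 0 in the 1 pair of arrays, with a median of 0.29 log2, where 6171 of 12717 genes lay above 0 and the median of all genes was -0.01. This pair has no replicate, so the difference carries no test of its own, and genes are not replicates of it. Past 1.5-fold there were 5 members higher and 0 lower, where 6.59% of all genes were past it, 4.36% higher and 2.23% lower.

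NDUFB5, of the membrane arm, read 13.05 log2 with vitamin D3 and 12.26 without, a difference of 0.79. NDUFV3 read 11.10 with and 10.43 without, NDUFA5 12.06 and 11.41, NDUFS7 11.78 and 11.15, and NDUFA10, a membrane-arm subunit, 11.86 and 11.25, differences of 0.60 to 0.67 log2. NDUFA8 read 11.76 with and 11.20 without, a difference of 0.56. The 5 core subunits differed by 0.16 to 0.63 log2 with a median of 0.41, the 9 accessory subunits of the matrix arm by 0.00 to 0.67 with a median of 0.36, and the 18 of the membrane arm by 0.01 to 0.79 with a median of 0.22. NDUFA4 differed by 0.30 log2. NDUFA4L2 alone lay below 0, at 6.89 log2 with vitamin D3 and 7.25 without, a difference of -0.36. NDUFV3 has a second probe set, which read 8.68 log2 with vitamin D3 and 8.09 without. No THP1 replicate is at hand to test whether these differences exceed those in the colon cancer lines.

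Of the other respiratory chain genes in the THP1 pair, all 7 complex III genes lay above 0 with a median of 0.41 log2, 10 of 11 complex IV genes with a median of 0.31, and 13 of 15 ATP synthase genes with a median of 0.29. CYC1, the cytochrome c1 of complex III, read 13.24 log2 with vitamin D3 and 12.57 without. Complex II was more mixed, with 3 of 5 genes above 0 and a median of 0.16. SDHD, a membrane anchor of complex II, had the largest difference of the 5, with 12.61 log2 with vitamin D3 and 11.73 without. The 19 assembly factors had a median of -0.05, with 7 above 0. Among the 12 regulators, with a median of 0.02, PPARGC1B, the coactivator PGC-1 beta, read 9.91 log2 with vitamin D3 and 7.14 without, and ESRRA, the nuclear receptor ERR alpha that it works with, 9.89 and 9.04. In the same pair CYP24A1 read 10.40 log2 with vitamin D3 and 4.51 without.

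**Figure D5:**
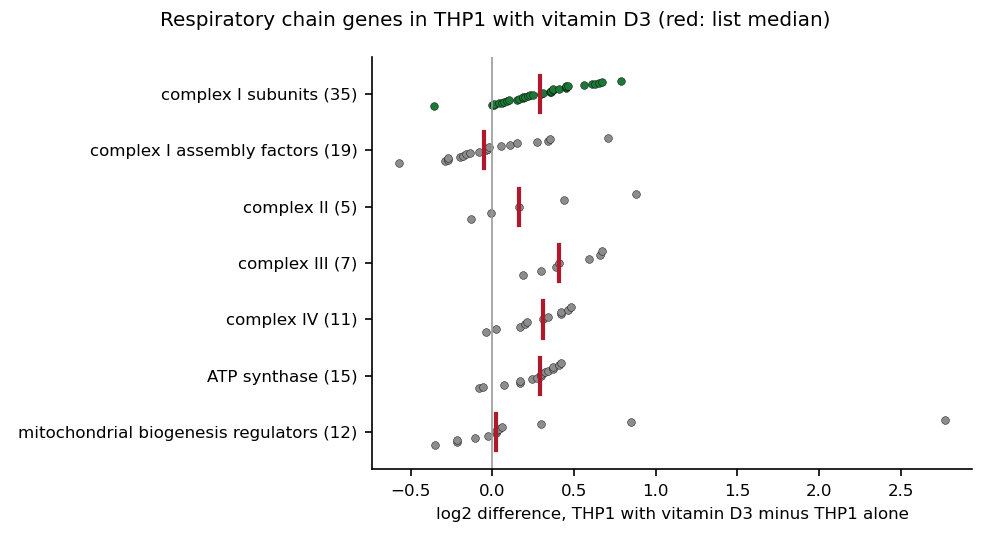
Log2 difference of each gene between THP1 cells with vitamin D3 and THP1 cells alone, by gene list, with 1 point per gene, the number of genes in brackets and red bars at the list medians. The complex I bar stands at 0.29, those of complexes III and IV and ATP synthase at 0.41, 0.31 and 0.29, that of the assembly factors at -0.05, and the far right point is PPARGC1B at 2.77.

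The 3 members without a probe set of their own read as follows on probe sets shared with other symbols. A probe set shared by NDUFC2 and the NDUFC2-KCTD14 readthrough read 12.26 and 12.22 log2 in cocultured Hke3 cells with and without vitamin D3, against 12.32 and 12.33 without coculture, and 12.21 and 12.17 in cocultured HCT116 cells, against 12.53 and 12.42. The probe set shared by NDUFS5 and RPL10 read 12.37 and 12.54 log2 in cocultured HCT116 cells with and without vitamin D3, against 12.67 and 12.75 without coculture. The brightest probe set that covers NDUFS8 and 2 microRNA genes read 10.97 to 11.25 log2 in Hke3 and 10.93 to 11.04 in HCT116. The signals of the genes that share these probe sets cannot be told apart, so none was tested.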

How the data were processed

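Values are the log2 intensities the authors deposited, 1 per probe set. The submitters' processing notes name RMA and the package affy, with no version. RMA corrects background, quantile-normalises and summarises probes. The 10 arrays hold 54675 probe sets, of which 41097 carry 1 gene symbol, 1801 several and 11777 none. Symbols were updated through Entrez identifiers.

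Fits used limma 3.58.1 in R 4.3.3. Coculture within each line and its difference between the lines were tested on the 8 colon cancer arrays with cell line, coculture, vitamin D3 and the line-by-coculture term (3 residual degrees of freedom). Coculture in both lines, vitamin D3 and Hke3 against HCT116 used additive terms (4), and THP1 against the colon cancer lines used 10 arrays (5). Vitamin D3 in THP1 has 1 array per group and was not tested. Tests were two-sided, with Benjamini-Hochberg adjustment over all genes tested. Named members were NDUFA4L2, NDUFA4, up to 6 called rises and falls each per comparison and, where none was called, the 3 smallest p per direction. Of each other gene list, up to 4 genes were named, called ones first and then by size. Members and lists were chosen with earlier results of these data known. The fits were tested on simulated data. Precision is limited by the number of arrays. CA9 is not analysed here. Figures used matplotlib 3.10.9 in Python 3.11.15.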

Additional observations from a re-analysis of the deposited data

How the results depend on the processing

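No paired analysis was possible because each condition has 1 array and so no replicate numbers to match. Pairs of arrays that share the other factors were compared through the terms of the fits, with the interaction of those factors as an alternative. Leaving out each array in turn gave 0 called members for coculture in Hke3, 0 to 3 in HCT116, 0 for coculture by line, for coculture in both lines and for vitamin D3, 3 to 7 between Hke3 and HCT116, and 22 to 25 for THP1. For coculture in Hke3, a filter at the 75th percentile and the mean of probe sets gave 1 member each and eBayes with trend and robust fitting 2. For HCT116 these fits gave 8 with trend, 1 each without a filter, with the line-by-vitamin D3 interaction added and with the line's 4 arrays alone, and 0 at a minimum of 1.5-fold. By line, trend gave 2. For both lines, 1 member each was called with the 75th percentile, the mean of probe sets, median-centred arrays, trend, and no vitamin D3 term. Between the lines, trend gave 11 and 1.5-fold 0, and NDUFS4 turned to 0.15 with the mean of probe sets. For THP1, 1.5-fold gave 12. The THP1 median was 0.22 with the mean of probe sets. The fits without a vitamin D3 term, the vitamin D3 fit without cocultures and the settings for the THP1 vitamin D3 pair were chosen after seeing the data. A fit that lent that pair the spread of the colon cancer arrays was also run after seeing the data, and its p-values are not given, since no THP1 replicate supports them. Over 58 named differences, 866 of 938 values under the alternatives kept direction and side, 61 lost and 10 gained a call, and 1 reversed. Over all genes, adding the interaction of the remaining factors left 343 called in Hke3, 1207 in HCT116, 209 by line and 259 in both lines, in place of 946, 2116, 557 and 1035. A minimum of 1.5-fold left 215, 264, 344 and 75, and leaving out an array left 118 to 676 in Hke3 and 126 to 1872 in HCT116, so the background shares above depend on these choices as well.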
